A study of Mus musculus with 44 samples.

Results

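The 9 genes described here belong to the complement system, and they were followed through the nucleus accumbens of mice given viral RXRa or a fluorescent control: C1qa, C1qb, C1qc, C2, C3, C4b, Cfb, Serping1 and C3ar1. They were chosen by name, matched by gene symbol in both count tables, and all 9 were found among 55487 genes. The retinoid X receptor alpha (RXRa) is a nuclear receptor that binds DNA as a partner of many other nuclear receptors, and the nucleus accumbens is a part of the ventral striatum. The bulk table held 8 libraries of whole accumbens tissue from males, 4 that had received the herpes simplex vector HSV-GFP and 4 that had received HSV-RXRa-GFP. The sorted table held 35 libraries of nuclei labelled D1 or D2, the usual names of the striatal projection neurons that carry Drd1 or Drd2, both dopamine receptor genes. Those animals had received AAV9-CAG-DIO-EGFP or AAV9-CAG-DIO-EGFP-P2A-RXRa, an adeno-associated vector with the ubiquitous CAG promoter whose insert is expressed after Cre recombinase inverts it. The EGFP and RXRa libraries numbered 5 and 4 for D1 females, 5 and 4 for D1 males, 4 and 4 for D2 females, and 5 and 4 for D2 males. One further D2 female library, whose title and vector label disagree, entered no comparison. The strain, age, Cre driver and time after infusion are not given in the sources used here. No label says that replicates were separate animals, so p-values measure the spread between these libraries, which may in part be technical.

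Complement is a cascade of plasma and tissue proteins that marks targets for uptake or lysis. In the classical route C1q, built from the products of C1qa, C1qb and C1qc, activates proteases that cut C4 and C2, and the lectin route joins at the same step. In the alternative route factor B, the product of Cfb, forms the convertase that cuts C3, where all routes meet. The C1 inhibitor, the product of Serping1, blocks the first proteases, and C3ar1 encodes the receptor for the fragment C3a. In the brain C1q and C3ar1 are known as microglial genes, C3 and C4b are also made by astrocytes and other glia, and C1q and C3 are known for tagging synapses that microglia remove.

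The genes lie in 4 places of the mouse genome, given here for the assembly GRCm38, and all 9 are on the minus strand. C1qa, C1qb and C1qc are neighbours on chromosome 4, between 136880129 and 136898803. C4b (34728380 to 34743882), Cfb (34856374 to 34862518) and C2 (34862604 to 34898265) lie close together in the major histocompatibility region of chromosome 17, and C3 lies farther along the same chromosome, from 57203970 to 57228136. Serping1 is on chromosome 2 (84765387 to 84775444) and C3ar1 on chromosome 6 (122847138 to 122856161).

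The bases just upstream of the start site are shown for the genes that have an entry in the RefSeq promoter table of GRCm38.p6, which are C1qb, C1qc, C3 and C3ar1. They are set side by side because C1qb and C1qc had nearly the same relative level in each bulk library while C3 and C3ar1 varied more. Each run holds the 250 bases before the RefSeq start site, 5′ to 3′ on the minus strand, and capitals mark the matches to 5 motifs that were searched on both strands. The gene positions above are from GENCODE M21, and its start sites can differ. It places the start of C1qc at 136893065, inside the window shown, and the C3ar1 window also overlaps its gene by a few bases. Motif positions hold for the RefSeq start only.
C1qb, chr4:136886201-136886450: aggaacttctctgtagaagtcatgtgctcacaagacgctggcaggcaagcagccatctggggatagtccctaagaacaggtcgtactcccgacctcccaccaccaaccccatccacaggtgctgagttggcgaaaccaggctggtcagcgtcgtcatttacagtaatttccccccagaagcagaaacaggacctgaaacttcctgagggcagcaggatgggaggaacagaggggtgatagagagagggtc
C1qc, chr4:136892915-136893164: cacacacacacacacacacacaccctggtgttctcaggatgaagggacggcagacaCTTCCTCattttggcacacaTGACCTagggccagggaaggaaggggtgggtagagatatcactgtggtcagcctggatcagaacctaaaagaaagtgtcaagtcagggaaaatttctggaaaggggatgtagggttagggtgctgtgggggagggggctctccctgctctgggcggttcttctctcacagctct
C3, chr17:57228137-57228386: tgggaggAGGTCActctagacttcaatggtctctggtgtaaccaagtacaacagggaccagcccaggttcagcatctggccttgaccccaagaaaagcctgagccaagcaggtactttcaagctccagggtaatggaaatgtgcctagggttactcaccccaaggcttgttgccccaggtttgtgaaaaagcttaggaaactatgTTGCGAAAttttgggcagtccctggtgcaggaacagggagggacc
C3ar1, chr6:122856158-122856407: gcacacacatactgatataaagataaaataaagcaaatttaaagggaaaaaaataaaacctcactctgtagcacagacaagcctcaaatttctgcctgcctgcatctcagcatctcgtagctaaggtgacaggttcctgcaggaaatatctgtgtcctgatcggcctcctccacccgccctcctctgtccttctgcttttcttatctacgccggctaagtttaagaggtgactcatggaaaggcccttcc
The motifs were the interferon-stimulated response element core GAAANNGAAA, the STAT site TTCNNNGAA, the nuclear receptor half-site AGGTCA, the PU.1 core GAGGAAG and the C/EBP site TTGCNNAA. C1qc held a PU.1 core on the opposite strand from -194 to -188 and a half-site on the opposite strand from -174 to -169, counted from the start site. C3 held a half-site from -243 to -238 and a C/EBP site from -45 to -38. C1qb and C3ar1 held none of the 5, and no window of the 4 held the interferon element or the STAT site. Over all 32817 windows of this length in the table, 14.0% held a half-site, 10.6% a PU.1 core, 9.57% a C/EBP site, 7.01% a STAT site and 2.97% the interferon element, so each match is of a common kind and none overlapped another.

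The libraries carried the vector that their labels name. The codon-altered RXRa sequence had 0 counts in all 4 bulk GFP libraries and 22.1 to 37.7 counts per 1e6 (CPM, scaled by the trimmed mean of M-values, TMM) in the 4 bulk RXRa libraries. In the sorted table it had at most 17 counts in the 19 EGFP libraries and at least 1216 in the 16 RXRa libraries. Total counts ran from 21567565 to 29167142 per bulk library and from 12211655 to 27757463 per sorted library. Drd2 separated the sorted populations without overlap (49.0 to 106 CPM in 18 D1 libraries, 520 to 1779 CPM in 17 D2 libraries), whereas the ranges of Drd1 overlapped (30.7 to 83.8 CPM in D1, 6.49 to 38.6 CPM in D2).

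In bulk tissue the fold changes of all 9 genes lay above 0, and C2 and Cfb were called higher with RXRa. C2 was 2.39-fold and Cfb 2.72-fold higher, both at low levels. The count of 2 called of 9 stands against 3.70% of the 18579 genes tested, or 3.01% called higher (edgeR quasi-likelihood test, Benjamini-Hochberg adjusted p under 0.05, here and throughout). The median log2 fold change of the 9 was 0.55, and that of all genes tested was -0.02. The RXRa libraries lay above every GFP library for 3 of the 9, C2, Cfb and Serping1, while 6.64% of all genes tested were separated in this direction. In bulk tissue a change in the number of cells of a type and a change in RNA per cell cannot be told apart.

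**Figure D1:**
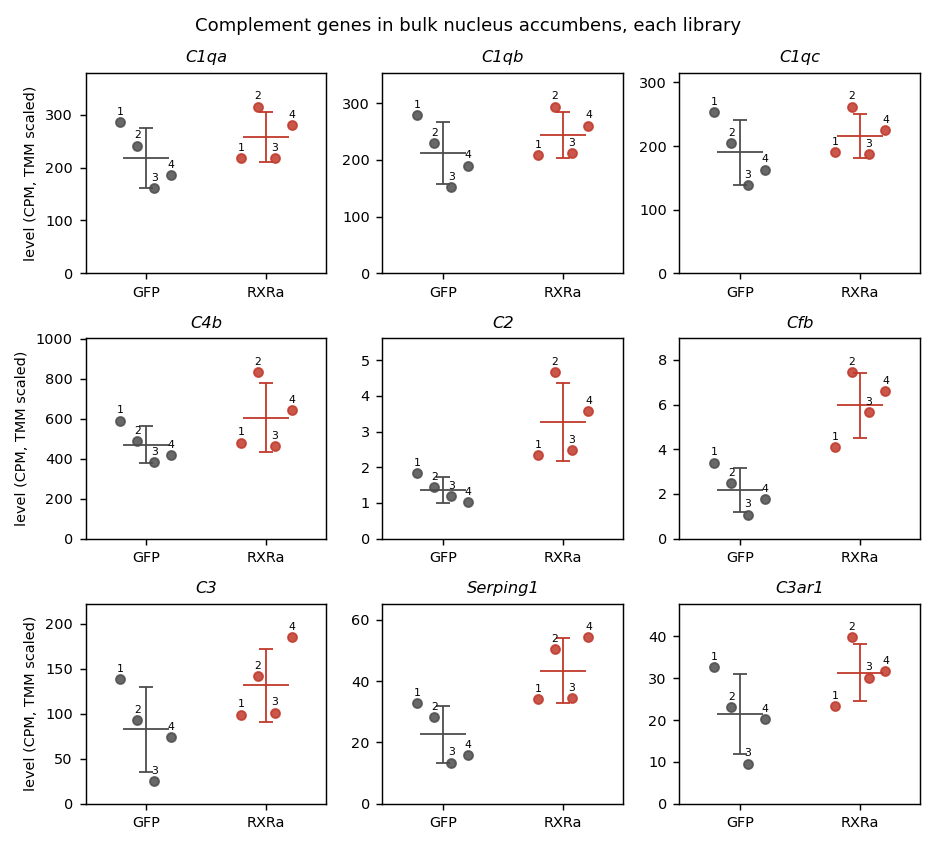
Levels of the 9 complement genes in each bulk library, in CPM with TMM scaling on a linear axis that starts at 0, for 4 GFP and 4 RXRa libraries. Points are libraries with their replicate number, long bars are means and short bars 1 SD; the groups are separated for C2, Cfb and Serping1, and GFP replicate 3 is the lowest library for 8 of the 9 genes.

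The C1q genes were the most abundant of the 9 per length of exon. Their mean level in the 4 GFP libraries was 210 ± 53.9 CPM per kb of exon for C1qa, 195 ± 50.2 for C1qb and 98.4 ± 26.2 for C1qc (SD, n = 4). C4b followed at 82.4 ± 16.2 CPM per kb, C3 at 16.0 ± 9.13, Serping1 at 9.72 ± 4.04, C3ar1 at 4.98 ± 2.22, Cfb at 0.773 ± 0.353 and C2 at 0.354 ± 0.0929 (SD, n = 4). In this order the ranges of neighbouring genes were separate between C1qb and C1qc, between C4b and C3 and between C3ar1 and Cfb, and they overlapped for the other neighbours. The values of Cfb and C2 were divided by full exon length. The annotated gene Gm20547, at 0 counts in bulk, covers 79.5% of the exon bases of Cfb and 42.8% of those of C2. Their levels per kb, and the gap between C3ar1 and Cfb, are therefore uncertain.

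C1qa, which encodes the A chain of C1q, read 285, 241, 161 and 185 CPM in GFP libraries 1 to 4 and 218, 315, 219 and 280 CPM in RXRa libraries 1 to 4. The groups overlapped, and the log2 fold change was 0.24 (SE 0.19, n = 4 per group, edgeR adjusted p = 0.50). C1qb, the B chain, read 279, 229, 151 and 190 CPM with GFP and 209, 294, 212 and 260 CPM with RXRa. Its 8 libraries stood in the same order as those of C1qa, with GFP 3 lowest and RXRa 2 highest. Its log2 fold change was 0.20 (SE 0.18, edgeR adjusted p = 0.574), and that of C1qc was 0.19 (SE 0.18, edgeR adjusted p = 0.60). C1qc, the C chain, ran from 138 to 254 CPM with GFP and from 187 to 262 CPM with RXRa. None of the C1q genes passed the test, in the full fit or with 1 library left out. Their fold changes were 0.12, 0.066 and 0.061 for C1qa, C1qb and C1qc without GFP 3, 0.13, 0.096 and 0.080 without RXRa 2, and 0.40, 0.36 and 0.36 without GFP 1.

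The chains of C1q kept an almost fixed ratio to each other in bulk. Counts of C1qa over C1qb lay between 0.977 and 1.07 in all 8 libraries, and C1qc over C1qb between 0.859 and 0.915. Over the same libraries the ratio of C3 to C4b ran from 0.0654 to 0.287, more than any pair of C1q chains. The C1q level was also set against 12 microglial genes such as P2ry12, Tmem119 and Cx3cr1, a list of which 0 genes were called. The summed CPM of the C1q genes was 0.502 to 0.607 of the summed CPM of that list in GFP libraries and 0.594 to 0.636 in RXRa libraries, and these ranges overlapped.

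C4b, the main mouse C4 gene, read 590, 489, 381 and 418 CPM in GFP libraries 1 to 4 and 480, 835, 461 and 645 CPM in RXRa libraries 1 to 4. RXRa 2 and RXRa 4 were above every GFP library, and RXRa 1 and RXRa 3 lay within the GFP range. The log2 fold change was 0.37 (SE 0.20, n = 4 per group, edgeR adjusted p = 0.332) and did not pass the test, and it was 0.17 without RXRa 2. Its near copy C4a shares 34.6% of the 50-base words of the C4b transcripts, so reads may be split between them, and C4a was at 3.07 to 5.43 CPM over the 8 libraries.

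C2, the protease partner of C4b, read 1.84, 1.45, 1.2 and 1.01 CPM in GFP libraries 1 to 4, from 27 to 52 counts. It read 2.34, 4.68, 2.49 and 3.56 CPM in RXRa libraries 1 to 4, from 54 to 136 counts. Every RXRa library lay above every GFP library, with RXRa 2 and RXRa 4 the highest. On the log2 scale the difference was 1.25 (SE 0.27, n = 4 per group, edgeR adjusted p = 0.0394). The call was lost without GFP 2, GFP 3, GFP 4, RXRa 2, RXRa 3 or RXRa 4, with edgeR adjusted p from 0.0603 to 0.137 and a log2 fold change from 1.02 to 1.36.

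Cfb, the protease of the alternative route, read 3.40, 2.5, 1.07 and 1.76 CPM in GFP libraries 1 to 4 and 4.10, 7.46, 5.67 and 6.6 CPM in RXRa libraries 1 to 4. The groups did not overlap, and GFP 3 was the lowest library. RXRa exceeded GFP by 1.45 on the log2 scale (SE 0.32, n = 4 per group, edgeR adjusted p = 0.0427). This call too was lost without any one of GFP 2, GFP 3, GFP 4, RXRa 2, RXRa 3 or RXRa 4, with edgeR adjusted p from 0.0513 to 0.154 and the fold change above 0 in each. The direction of C2 and Cfb was the same in all 8 of these fits.

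The counting of C2 and Cfb is uncertain, because the annotated gene Gm20547 runs over both on the same strand. It covers 42.8% of the exon bases of C2 and 79.5% of those of Cfb, and Zbtb12 on the opposite strand covers 4.16% of those of C2. Gm20547 had 0 counts in all 8 bulk libraries and 60 to 273 counts in each of the 35 sorted libraries. How reads in the shared bases were assigned is not given in the sources used here. The ratio of C2 to Cfb counts was 0.542 to 1.10 in GFP and 0.439 to 0.627 in RXRa libraries.

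C3, the central component, varied the most among the controls. It read 138, 92.9, 24.9 and 74.0 CPM in GFP libraries 1 to 4 and 98.8, 141, 101 and 185 CPM in RXRa libraries 1 to 4. GFP 3 was the lowest library and GFP 1 lay within the RXRa range. The highest GFP library was 5.55 times the lowest, against 1.87 times among RXRa libraries. The log2 fold change was 0.67 (SE 0.42, n = 4 per group, edgeR adjusted p = 0.395), and it moved to 0.37 without GFP 3 and to 1.04 without GFP 1 and did not pass in any fit that left out 1 library.

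Serping1, which encodes the C1 inhibitor, read 32.9, 28.2, 13.4 and 16.0 CPM in GFP libraries 1 to 4 and 34.2, 50.5, 34.5 and 54.4 CPM in RXRa libraries 1 to 4. The groups did not overlap, though RXRa 1 and RXRa 3 were close to GFP 1. The log2 fold change was 0.94 (SE 0.29, n = 4 per group, edgeR adjusted p = 0.106), which did not pass, while the DESeq2 Wald test gave an adjusted p of 0.0148. C3ar1, the receptor, read 32.8, 23.1, 9.59 and 20.2 CPM with GFP and 23.3, 39.9, 30.2 and 31.8 CPM with RXRa. GFP 3 was again the lowest library and GFP 1 was above RXRa 1, RXRa 3 and RXRa 4. Its log2 fold change of 0.55 did not pass (SE 0.31, edgeR adjusted p = 0.348), and it was 0.30 without GFP 3 and 0.83 without GFP 1.

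**Figure D2:**
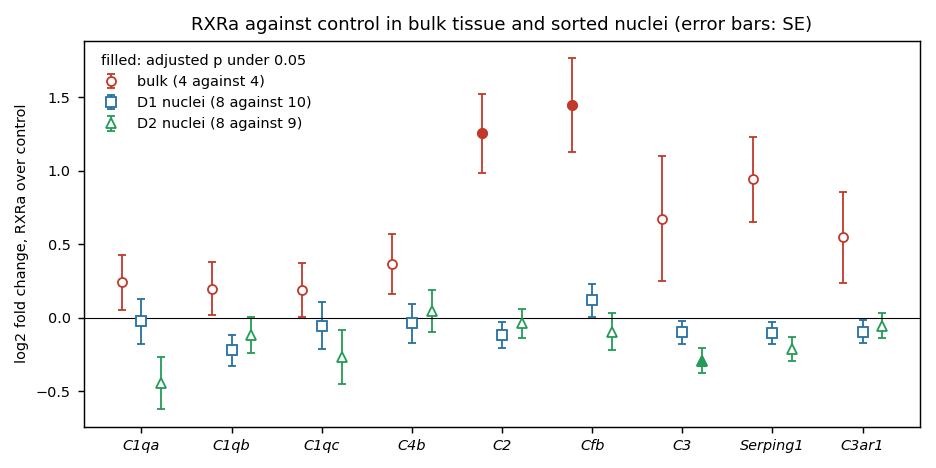
Log2 fold change of RXRa over the control for each complement gene, with its SE as the error bar, in bulk tissue (4 against 4 libraries), D1 nuclei (8 against 10) and D2 nuclei (8 against 9). Filled symbols passed an edgeR adjusted p of 0.05, and they are C2 and Cfb in bulk and C3 in D2, where the value is below 0.

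The rest of the pathway did not move with one sign. Of 48 further complement genes 36 were tested in bulk, 1 was called higher and 1 lower, against 3.01% and 0.689% of all genes, and 8 had an unadjusted p under 0.05, as did 21.5% of all genes. Their median log2 fold change was 0.06. The gene called higher was C1ra, a protease that C1q activates, at 7.77 to 13.9 CPM in GFP and 18.5 to 27.3 CPM in RXRa libraries, and its fold change on the log2 scale was 1.08 (SE 0.22, n = 4 per group, edgeR adjusted p = 0.0328). The groups were separate, but the call was lost without any one of GFP 2, GFP 3, GFP 4, RXRa 2, RXRa 3 or RXRa 4 (edgeR adjusted p 0.0554 to 0.113). Its partner protease C1s1 stood at 0.91 (SE 0.38) on that scale, with an edgeR adjusted p of 0.20.

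The gene called lower was Csmd3, a large membrane protein with complement-control domains that neurons express. It lay at 51.4 to 60.5 CPM in GFP and 35 to 44.4 CPM in RXRa libraries, and its log2 fold change was -0.57 (SE 0.09, n = 4 per group, edgeR adjusted p = 0.0132). The call was lost without GFP 4 (adjusted p = 0.0629) or RXRa 4 (adjusted p = 0.0508).

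By role, 1 of 8 tested classical and lectin genes was called, 0 of 1 alternative, 0 of 3 terminal, 0 of 7 receptors and 1 of 17 regulators. Masp1, a lectin-route protease, had a log2 fold change of -0.08 (SE 0.15), and Colec12, a scavenger collectin, of 0.16 (SE 0.09). Properdin, the product of Cfp, stabilises the alternative convertase and was at 0.49 (SE 0.13, edgeR adjusted p = 0.0776) on the log2 scale. Cfd, which encodes factor D, did not pass the filter on low counts, at 0.0354 to 0.527 CPM over the 8 libraries.

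The terminal genes C8g (0.33, SE 0.18), C7 (0.11, SE 0.14) and Hc, the mouse C5 gene (-0.08, SE 0.49), had log2 fold changes that did not pass. The receptor subunit Itgb2 was at 0.60 (SE 0.27), its partner Itgam at 0.02 (SE 0.18) and the phagocytic receptor Cd93 at 0.61 (SE 0.22), and none passed. Among regulators the abundant fluid-phase inhibitor clusterin, Clu, was at 0.09 (SE 0.06), and the neuronal genes Sez6 (-0.06, SE 0.08) and Sez6l2 (-0.24, SE 0.08) did not pass either.

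**Figure D3:**
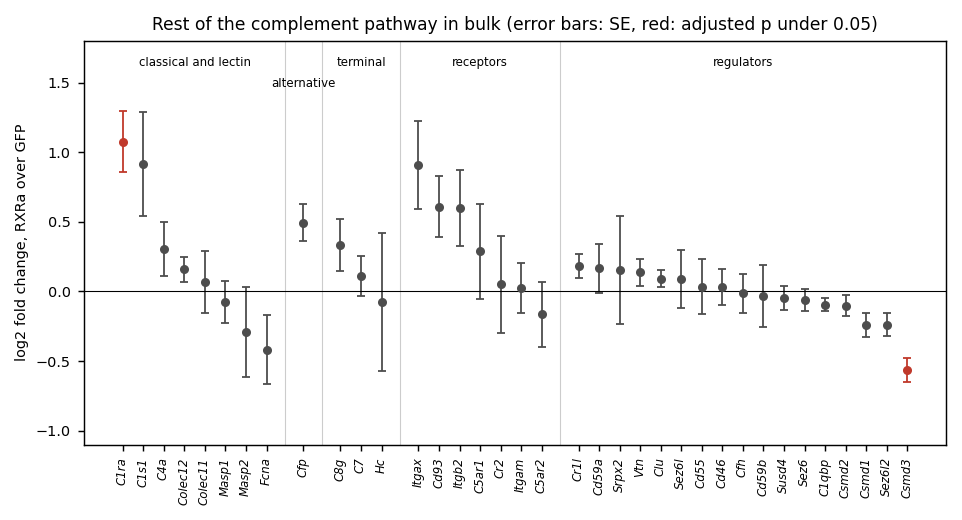
Log2 fold change of RXRa over GFP in bulk, with its SE as the error bar, for the 36 tested genes of the rest of the complement pathway, ordered within each role. Red marks an edgeR adjusted p under 0.05, which holds for C1ra (1.08) and Csmd3 (-0.57).

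Other gene lists moved in the same bulk libraries. Of all genes tested there 3.01% were called higher and 0.689% lower, and 21.5% had an unadjusted edgeR p under 0.05. Of 24 interferon-response genes 20 were called higher, with Ifit1 at 1.45 (SE 0.15), Zbp1 at 1.41 (SE 0.23) and Rsad2 at 1.39 (SE 0.22) on the log2 scale, and the summed level rose from 2332 to 3530 CPM in GFP to 4597 to 6468 CPM in RXRa libraries. Without GFP 4 that count was 1 and without RXRa 4 it was 13. Of 13 T and NK cell markers 10 were called higher, led by Cd3d at 2.22 (SE 0.44), Klrd1 at 2.07 (SE 0.40) and Cd3e at 2.05 (SE 0.42), and the summed level was 67.2 to 82.4 CPM in GFP and 90.6 to 188 CPM in RXRa libraries. The T and NK count was 5 without GFP 1, 3 without GFP 2, 4 without GFP 3, 0 without GFP 4, 5 without RXRa 2 and 1 without RXRa 4. The highest T and NK sums were in RXRa 2 (188 CPM) and RXRa 4 (152 CPM), and for each of the 9 complement genes the highest library was one of these. Among GFP libraries the order was the other way at both ends. GFP 1 had the lowest T and NK sum (67.2 CPM) and the highest complement sum (1618 CPM). GFP 3 had the highest T and NK sum of that group (82.4 CPM) and its lowest complement sum (881 CPM).

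Of 11 tested macrophage and monocyte markers 2 were called, Ly6c2 at 2.02 (SE 0.32) and Plac8 at 1.57 (SE 0.25), and the summed level was 128 to 306 CPM in GFP and 266 to 490 CPM in RXRa libraries, with GFP 3 the lowest. Of 12 activated-microglia genes 1 was called, Cd74 at 1.54 (SE 0.34), where 3.01% of all genes were called higher. Of 12 microglial markers 0 were called and 2 had an unadjusted edgeR p under 0.05, against 21.5% of all genes. The summed level of these markers was 898 to 1357 CPM in GFP and 970 to 1379 CPM in RXRa libraries. The sums of the microglial list overlapped between the groups.

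Among 9 reactive-astrocyte genes 0 were called and 3 had an unadjusted edgeR p under 0.05, against 21.5% of all genes. Their sum ran from 477 CPM in GFP 3 to 1493 CPM in GFP 1, against 1156 to 1761 CPM with RXRa. For the lists that follow, 3.01% of all genes were called higher and 0.689% lower. Of 10 astrocyte genes 1 was called, Aqp4 at 0.57 (SE 0.13). Of 8 endothelial genes 3 were called, Kdr at 0.71 (SE 0.14), Ly6c1 at 0.67 (SE 0.10) and Cdh5 at 0.59 (SE 0.11), and of 8 mural and fibroblast genes 2, Dcn at 0.85 (SE 0.19) and Col1a1 at 0.83 (SE 0.19). The sums of both lists were separate, at 302 to 384 CPM in GFP against 391 to 435 CPM in RXRa libraries for the endothelial list and 226 to 260.0 against 263 to 314 CPM for the mural and fibroblast list. The D2 neuron list had 1 of 5 called, Gpr6 at -0.39 (SE 0.08). The calls of the neutrophil (3 tested), B and plasma cell (4), oligodendrocyte (9), oligodendrocyte precursor (5), choroid and ependymal (4), general neuron (6) and D1 neuron (6) lists numbered 0, with 2, 1, 3, 1, 1, 1 and 0 genes at an unadjusted p under 0.05. An unadjusted edgeR p under 0.05 was reached by 21.5% of all genes. With 1 library left out the calls ran from 0 to 3 for the macrophage and monocyte list and for the endothelial list. They ran from 0 to 2 for the activated-microglia list and for the mural and fibroblast list. For the astrocyte and D2 neuron lists they ran from 0 to 1. Some lists share a gene. Gbp2 is in the interferon-response and the reactive-astrocyte list, and Itgax is in the activated-microglia list and among the complement receptors. Vtn is in the mural and fibroblast list and among the complement regulators. The part of any of the gene lists in the complement values was not tested.

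**Figure D4:**
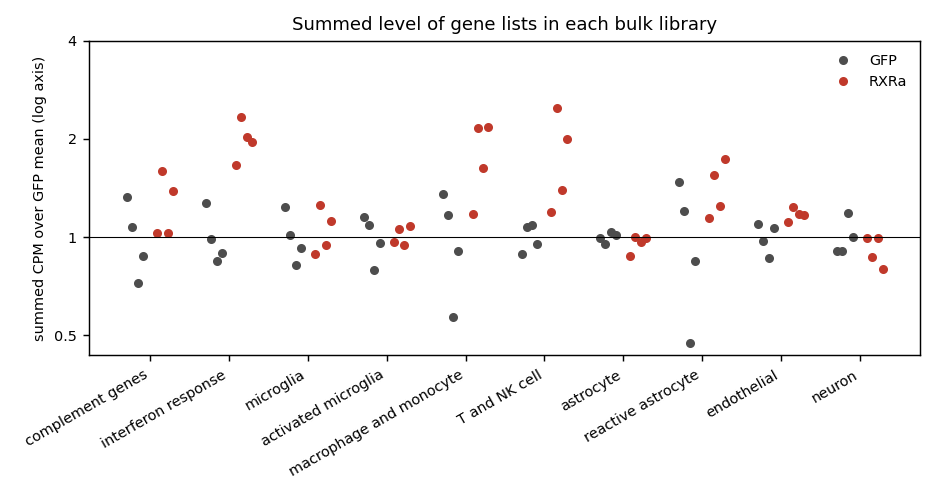
Summed CPM of each gene list in each bulk library, divided by the mean of the GFP libraries, on a log axis (4 GFP and 4 RXRa libraries). RXRa libraries lie above all GFP libraries for the interferon and the T and NK cell lists, as they do by a narrow margin for the endothelial list, and the groups overlap for the other 7 lists shown.

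In the bulk libraries the genes with a pattern most like the mean log2 CPM of the C1q genes were Tyrobp (Pearson r = 0.99), Cotl1 (0.99) and Nckap5 (0.99), among 16000 genes with a mean of at least 1 CPM. For C4b they were Selplg (0.99), Bst1 (0.98) and Gna15 (0.98). These are correlations over 8 libraries of 2 groups that share tissue, depth and preparation, and they are given as a description.

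The sorted nuclei differ from bulk in what a count holds, since total RNA of nuclei includes unspliced transcripts and reads that lie anywhere in a gene body. The level of such reads was gauged from 1576 autosomal protein-coding genes without a single bulk count and with a gene body of 5 kb or more. Their median CPM per kb of body, called the silent-gene density here, was 0.380 to 0.565 CPM per kb over the 35 libraries, and the counts of those genes followed body length (Spearman rho 0.80 across genes) and not exon length (0.07). The source of the reads in these silent genes was not tested. Each complement gene was divided by the silent-gene density, per kb of gene body. The median ratio over the 35 libraries was 0.49 for C2, 0.64 for Cfb, 0.99 for C1qc, 1.23 for C3, 1.26 for C1qb, 1.29 for C1qa, 1.29 for C3ar1, 1.68 for C4b and 1.76 for Serping1. The silent genes themselves had a 5th to 95th percentile of 0.352 to 1.56, so 7 of the 9 lay inside that range and C4b and Serping1 just above it. The ratios of C2 and Cfb are uncertain, since Gm20547 overlaps both on the same strand and had 60 to 273 counts per sorted library. For comparison, Drd1 had a median ratio of 14.2 and Penk of 66.8, and the microglial genes P2ry12 and Cx3cr1 had 0.82 and 0.97.

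**Figure D5:**
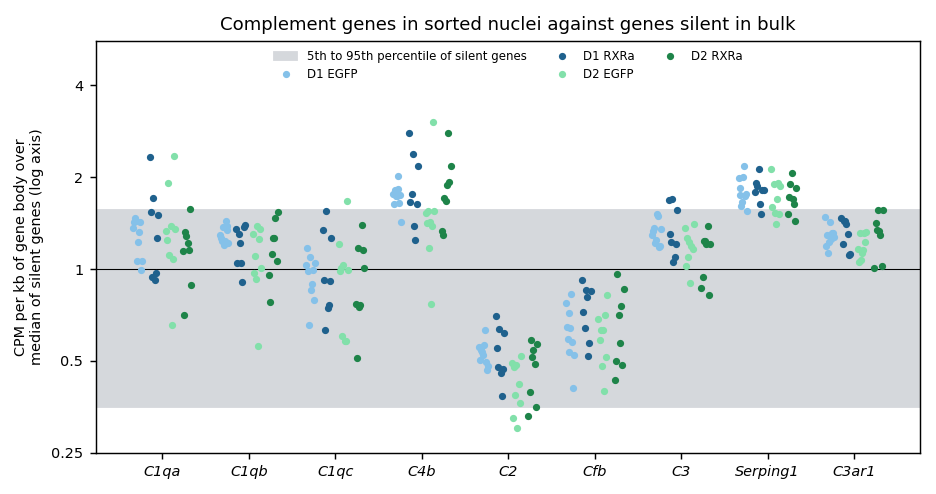
CPM per kb of gene body of each complement gene in each of the 35 sorted libraries, divided by that library's median over 1576 genes silent in bulk, on a log axis. The grey band is the 5th to 95th percentile of the silent genes (0.352 to 1.56), and most points of C4b and Serping1 lie above it while those of the other 7 genes lie mostly within.

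With these levels in view, D1 nuclei showed 0 of 9 complement genes called for RXRa against EGFP, where 0% of 43902 genes were called by edgeR and 0 by DESeq2, although 3518 had an unadjusted edgeR p under 0.05. C1qb had the smallest p of the 9, at 3.63 to 4.45 CPM (median 3.94) in 10 EGFP libraries and 2.94 to 4.46 CPM (median 3.10) in 8 RXRa libraries. The ranges overlapped, and the log2 fold change was -0.22 (SE 0.11, edgeR adjusted p = 0.617). Over the 9 genes the log2 fold changes ran from -0.22 to 0.12 with a median of -0.10, and that of all genes was -0.01. C2 and Cfb, the genes called in bulk, were at -0.12 (SE 0.09) and 0.12 (SE 0.11).

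In D2 nuclei 1 of 9 was called, C3, and it was lower with RXRa. The background there was 22.1% of 43902 genes called, or 7.14% called lower and 14.9% higher. With library totals in place of TMM scaling that split turned around, to 21.3% lower and 4.69% higher, and C3 was at -0.45 (edgeR adjusted p = 0.0117). C3 was at 13.1 to 16.7 CPM in D2 female EGFP and 10.2 to 13.1 CPM in D2 female RXRa libraries, which did not overlap. In males it was at 12 to 16.3 CPM with EGFP and 9.58 to 15.1 CPM with RXRa, which did. The log2 fold change over both sexes was -0.29 (SE 0.08, 8 against 9 libraries, edgeR adjusted p = 0.0174), with counts of 127 to 342 per library. Bulk had given 0.67 for the same gene, without a call, in another vector, library type and tissue fraction.

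The C3 call in D2 was kept in 15 of 17 fits that left out 1 library and lost in the rest. The adjusted p was 0.0642 without D2 female RXRa 4 and 0.0552 without D2 male RXRa 5, and the count of all genes called fell from 9683 to 0 and 1633 in the same fits. With the log2 silent-gene density as a covariate the fold change of C3 was -0.31 and its edgeR adjusted p 0.915, with 0 genes called in all. The median density was lower with RXRa in D2, at 0.528 against 0.464 CPM per kb in females and 0.534 against 0.459 in males for EGFP against RXRa, though the ranges overlapped in both sexes. In D1, where 0 genes were called, the medians were 0.502 against 0.452 in females and 0.512 against 0.50 in males.

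The other 8 genes were not called in D2. C1qa was at -0.44 (SE 0.18, edgeR adjusted p = 0.0661), at 1.04 to 3.72 CPM with EGFP and 1.02 to 2.19 CPM with RXRa, from 14 to 47 counts. Serping1 was at -0.21 (SE 0.08, edgeR adjusted p = 0.0525), at 7.58 to 10.9 CPM with EGFP and 6.94 to 9.28 CPM with RXRa. The groups overlapped for both genes over the 2 sexes. With library totals in place of TMM scaling Serping1 passed at -0.37 (adjusted p = 0.0169) and C1qa at -0.61 (adjusted p = 0.0207), and the median of all genes moved from -0.04 to -0.20, so relative to that median both values stayed near those under TMM scaling. C4b was at 0.04 (SE 0.14) under TMM scaling and at -0.11 with library totals. C2 was at -0.04 (SE 0.10) and Cfb at -0.09 (SE 0.13).

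Within 1 sex no complement gene was called in D1 or D2, where 0% of genes were called. In D2 females 2 of 9, C1qa and C3, were lower in CPM in every RXRa library than in every EGFP library. That held for 3.75% of all genes, and none of the 9 was higher throughout, against 2.33%. Per kb of gene body and divided by the silent-gene density of each library, the groups overlapped for both genes. C3 then stood at 1.02 to 1.36 with EGFP and 0.864 to 1.24 with RXRa. For C1qa these ratios were 1.11 to 1.91 with EGFP and 0.71 to 1.32 with RXRa. None of the 9 was separated in D1 females (1.43% of all genes separated lower, 1.04% higher), in D1 males (0.854% and 0.437%) or in D2 males (1.44% and 1.15%). The difference between the D2 and D1 effects was called for 0 of 9, with 0% of all genes called and 3609 at an unadjusted p under 0.05, so no effect was shown to differ between the populations. The difference for C3 was -0.19 (SE 0.11, edgeR adjusted p = 0.604).

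Under EGFP alone the complement genes did not separate the populations or the sexes. In D2 against D1 0 of 9 were called, and 0.121% of all genes, with C2 the nearest at -0.28 (SE 0.09, edgeR adjusted p = 0.266). C2 was at 8.75 to 10.9 CPM (median 9.35) in 10 D1 EGFP libraries and 5.88 to 9.20 CPM (median 7.88) in 9 D2 EGFP libraries, with overlap. In females against males 0 of 9 were called and 4.43% of all genes, and the log2 differences of the 9 ran from -0.11 to 0.10.

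The rest of the pathway in the sorted nuclei had 0 of 48 called in D1 and 17 of 48 in D2, of which 8 were higher and 9 lower, against 14.9% and 7.14% of all genes. With library totals 4 were higher and 17 lower, against 4.69% and 21.3%. The 8 that were higher included regulators that neurons express, with Sez6 at 0.67 (SE 0.18), Sez6l2 at 0.60 (SE 0.16) and Csmd3 at 0.31 (SE 0.10) on the log2 scale, and properdin, Cfp, at 0.30 (SE 0.10). Among the 9 that were lower C1ra was at -0.20 (SE 0.07), Masp1 at -0.17 (SE 0.05) and Colec12 at -0.17 (SE 0.06). All 7 of these kept their sign under both other scalings, but Csmd3 (adjusted p = 0.16) and Cfp (0.271) did not pass with library totals, nor C1ra (0.0576) and Colec12 (0.0719) with RLE size factors. C1ra and Csmd3, the genes called in bulk, thus had the opposite sign in D2 nuclei, and the difference between the 2 tables was not tested. These D2 calls come from the fit in which 0 genes were called without D2 female RXRa 4 or with the silent-gene density as a covariate. Other lists moved in D2 under TMM scaling, against the same 14.9% and 7.14%. Of general neuron genes 5 of 6 were called higher, of D2 neuron genes 4 of 5, and of D1 neuron genes 3 of 6 with 1 lower. Of interferon-response genes 9 of 24 were called lower and of reactive-astrocyte genes 5 of 9, with 0 higher in either list. Counts of these lists with library totals are not given here. Divided by the silent-gene density, the median gene of the general neuron list stood at 3.58 in D2, of the D2 neuron list at 19.7 and of the D1 neuron list at 1.44. It stood at 1.19 for the astrocyte and 1.11 for the microglial list, and is not given for the interferon and reactive-astrocyte lists.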

How the data were processed

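Per the labels' protocols, bulk libraries were poly(A)-selected and those of sorted nuclei came from total RNA after ribosomal RNA removal, by a stranded low-input kit, both read as pairs of 150 bp. The authors deposited a table of whole read counts per gene for each experiment, not normalized. The submitters' processing notes name FastQC, Trimmomatic, HISAT2, Picard, Subread with featureCounts, and the build GRCm38. The annotation release, the use of strand, intron reads and reads in overlapping genes are not given in the sources used here.

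Symbols and positions came from GENCODE M21, which matched 55394 of 55487 gene identifiers. Counts were fitted with edgeR 4.0.16 in R 4.3.3 (quasi-likelihood test, TMM scaling, filterByExpr, vector sequences left out, Benjamini-Hochberg adjustment over all genes tested, threshold 0.05). Bulk was fitted as 2 groups. The sorted libraries were fitted as 8 groups that share their dispersion, and each sex has equal weight where both enter a contrast. SE is the log2 fold change divided by the square root of F. Code was tested on simulated data. Pairs of replicates differed by more than counting noise (chi-square per degree of freedom 1.79 to 63.6 over 72 pairs), so each library counts once.

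A count of 0 allows up to 3 counts, which is 0.103 to 0.138 CPM per bulk library and 0.0983 to 0.263 CPM per sorted library, a limit that covers counting error only because PCR copies are not separate molecules. Members and lists were chosen with earlier results of these data known. Named genes are the 9 members, pathway genes called in bulk plus up to 3 per list with the highest bulk CPM, up to 3 called genes per marker list with the largest change, the vector sequences, and the 3 genes most like C4b and C1q. Alternatives were RLE and library-total scaling, other filters, DESeq2 1.42.0, limma voom (limma 3.58.1), a robust fit, a replicate block, a silent-gene covariate, 1 population per fit, and each library left out.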

Additional observations from a re-analysis of the deposited data

Results flagged for a closer look

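Each complement gene was examined in each of the 10 groups for a library that stood apart from the rest of its group by Dixon's criterion. Of 90 gene and group combinations 5 met it, about the number that chance gives, since chance flags about 1 in 20. C4b was at 25.9 CPM in D2 male EGFP 4, while the other 4 libraries of that group lay between 6.55 and 11.8 CPM. C3 was at 12 CPM in D2 male EGFP 2, below the 15.2 to 16.3 CPM of the rest. C1qa was at 2.89 CPM in D2 female EGFP 4, above 1.82 to 1.95 CPM. C1qb was at 3.89 CPM in D1 female RXRa 4, above 3.07 to 3.11 CPM, and C2 in the same library was at 8.39 CPM, below 9.44 to 9.58 CPM. No bulk library was among them, and GFP 3 did not meet the criterion for any of the 9 genes.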

How the results depend on the processing

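In bulk the number of complement genes called, 2, was 3 with DESeq2 and 0 with a replicate block, and ran from 0 to 2 when 1 library was left out. All genes called, 687, were 1598 with DESeq2 and 0 with the block, and 9 to 1016 with 1 library left out. The 9 fold changes kept their direction in bulk under every alternative run. In D2, 1 complement gene was called, and 3 with library totals, 2 with a mean of at least 1 CPM, and 0 with the block, the silent-gene covariate or D2 alone in the fit; leaving out 1 library gave 0 to 3. All genes called in D2, 9683, were 1 with the block, 0 with the covariate and 2547 with D2 alone, and 0 to 14766 with 1 library left out.

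The replicate numbers were not taken as pairing: same-numbered libraries had correlated deviations from -0.65 to 0.63 in bulk, and 5 of 19 RXRa libraries correlated best with their own number. Under the block C2 in D2 turned to 0.028, and the edgeR adjusted p in bulk was 0.102 for C2 and 0.105 for Cfb. The sign also turned for Cfb in D1 (-0.010) and C3ar1 in D2 (0.055) with the covariate and for C4b in D2 (-0.11) with library totals, and no such value was called. With 1 library left out the sign turned for C1qa (-0.075 to 0.048), C1qc (-0.15 to 0.022) and C4b (-0.096 to 0.0019) in D1 and for C2 (-0.11 to 0.0078) and C4b (-0.040 to 0.26) in D2. The cause was not tested.

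Within 1 sex, where 0 genes were called, DESeq2 gave 4 in D1 females, 3027 in D2 females and 39 in D2 males, the block 1 in D1 females and 1 in D2 females, and limma voom 1 in D2 males. Leaving out 1 library gave 0 to 4 in D1 females, 0 to 6699 in D2 females (with 0 to 1 complement genes) and 0 to 5986 in D2 males. In D2 against D1, 53 genes became 92 with DESeq2 and 14 with the block. In females against males, 1947 became 1022 with a mean of at least 1 CPM and 1185 with the block. C1q genes in nuclei had as few as 13 counts in a library, which limits their precision.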

Other observations

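The library with the highest C4b of the 35 sorted libraries, D2 male EGFP 4, also ranked first for several glial genes, which code for myelin proteins (Mbp, Mag) and astrocyte proteins (Gfap, Aqp4). Mbp was at 122 CPM there against a median of 92.3 CPM over the 35 libraries, Mag at 11.8 against 6.85, Gfap at 9.74 against 5.65 and Aqp4 at 21.7 against 12.7 CPM. C1qa was highest there as well, at 3.72 CPM against a median of 1.84 CPM. The second highest library for C4b, D2 male RXRa 2 at 18.9 CPM, was second for Mag at 9.96 CPM and 5th for Mbp, but 15th for Gfap at 5.78 CPM, 25th for Aqp4 at 11.5 CPM and 30th for C1qa at 1.46 CPM. These genes were picked after the values of C4b had been seen.

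Over the 35 sorted libraries, which share their preparation and differ in depth and background, the genes with a pattern most like C4b were Lbx1 (Pearson r = 0.76), Tspo2 (0.73) and Mag (0.72), among 32511 genes with a mean of at least 1 CPM. For the mean of the C1q genes they were Gfap (0.81), Igfbp5 (0.74) and H2-D1 (0.73).

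The D2 female library with conflicting labels was scaled by its library total and set beside the 8 other D2 female libraries scaled in the same way. C1qa, C1qb, C1qc, C3, Cfb, Serping1 and C3ar1 lay within the range of those 8. C2 was at 9.72 CPM, above their range of 5.45 to 9.61 CPM, and C4b at 14.5 CPM, above 8.05 to 13.1 CPM.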
